A study of Mus musculus with 12 samples.

Results

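The transcripts of 9 aldehyde dehydrogenase genes, Aldh1a1, Aldh1a3, Aldh1a7, Aldh1b1, Aldh2, Aldh3a1, Aldh3a2, Aldh3b1 and Aldh9a1, were followed across all 12 libraries of a mouse stomach organoid experiment. They were picked by symbol from a table of 55421 genes, each symbol matched 1 row, and all 9 passed the filter on low counts that left 16152 genes for testing. The organoids were 3-dimensional epithelial cultures grown in Matrigel from glands of wild-type mice. The 4 groups of 3 libraries were antral organoids under Wnt inhibition, antral organoids in vehicle, corpus organoids under Wnt inhibition and corpus organoids in vehicle, where antrum is the outlet end of the stomach and corpus its body. Lines 8025, 8026 and 8028, described as independent, were used in each region. Inhibited organoids received XAV939, which inhibits tankyrase and so lowers Wnt signalling, labelled as 1 mM, together with Noggin at 100 ng/mL and without the added Wnt and R-spondin. Treatment began on day 4 after passage and RNA was taken 24 hours later. Vehicle organoids received DMSO in their usual medium with 50% L-WRN, a conditioned medium that supplies Wnt, R-spondin and Noggin. Compound and medium changed together and cannot be told apart. The growth medium held 10% serum for antrum and 20% for corpus, so region and serum cannot be told apart either.

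Aldehyde dehydrogenases oxidize reactive aldehydes to carboxylic acids with NAD or NADP as cofactor. The Aldh1a enzymes other than Aldh1a7 oxidize retinal to retinoic acid, the ligand of nuclear receptors that control differentiation. They act after alcohol dehydrogenases or retinol dehydrogenases have made retinal from vitamin A. Other members clear acetaldehyde in mitochondria, or fatty and aromatic aldehydes that arise from lipid peroxidation, and stomach epithelium is known for a high content of the class 3 enzyme encoded by Aldh3a1.

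Aldh1a1 and Aldh1a7 are close copies, and how far their counts can be kept apart bears on every value given for them. Over 1503 coding bases of their main transcripts in GENCODE release M21, 126 positions differed (91.6% identity), and the longest identical run was 100 bases. Of all stretches of 50 bases in the Aldh1a1 transcript, 7.53% also occurred in Aldh1a7, of 75 bases 2.53%, and of 100 bases 0.0512%. The read length is not given in the sources used here. The most alike and the least alike windows of 120 bases are printed to show where a short read is hard and where it is easy to assign. The first pair covers coding positions 199 to 318 and the second 877 to 996, counted from the first base of the start codon, and capitals mark the positions that differ, 1 in the first pair and 24 in the second.
Aldh1a1, most alike: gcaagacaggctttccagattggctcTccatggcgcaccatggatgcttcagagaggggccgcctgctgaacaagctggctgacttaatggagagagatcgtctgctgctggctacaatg
Aldh1a7, most alike: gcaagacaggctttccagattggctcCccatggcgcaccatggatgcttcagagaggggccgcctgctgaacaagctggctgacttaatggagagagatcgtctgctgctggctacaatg
Aldh1a1, least alike: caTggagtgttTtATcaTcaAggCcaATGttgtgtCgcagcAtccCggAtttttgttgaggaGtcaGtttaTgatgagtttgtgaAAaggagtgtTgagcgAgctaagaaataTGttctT
Aldh1a7, least alike: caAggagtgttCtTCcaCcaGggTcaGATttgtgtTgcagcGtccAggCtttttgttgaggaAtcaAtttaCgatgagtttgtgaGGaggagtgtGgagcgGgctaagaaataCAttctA

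Regions around a transcription start of each gene were alike too. These regions, from 250 bases before to 50 after, were taken from RefSeq on GRCm38.p6. They lay at chr19:20601718-20602017 on the plus strand for Aldh1a1, at 1 of its 2 listed starts and within the annotated span of the gene, and at chr19:20727507-20727806 on the minus strand for Aldh1a7. The outer start of Aldh1a1 was not compared. Of 285 aligned base pairs 221 were identical (77.5%), and capitals mark identical runs of at least 20 bases, the longest of which had 65.
Aldh1a1 start region: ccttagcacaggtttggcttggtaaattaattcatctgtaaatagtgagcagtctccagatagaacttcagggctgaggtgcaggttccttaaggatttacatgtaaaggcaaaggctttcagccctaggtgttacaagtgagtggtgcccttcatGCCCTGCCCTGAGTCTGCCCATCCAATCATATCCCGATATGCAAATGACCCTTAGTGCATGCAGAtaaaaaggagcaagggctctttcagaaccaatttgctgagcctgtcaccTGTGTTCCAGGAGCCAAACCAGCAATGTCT
Aldh1a7 start region: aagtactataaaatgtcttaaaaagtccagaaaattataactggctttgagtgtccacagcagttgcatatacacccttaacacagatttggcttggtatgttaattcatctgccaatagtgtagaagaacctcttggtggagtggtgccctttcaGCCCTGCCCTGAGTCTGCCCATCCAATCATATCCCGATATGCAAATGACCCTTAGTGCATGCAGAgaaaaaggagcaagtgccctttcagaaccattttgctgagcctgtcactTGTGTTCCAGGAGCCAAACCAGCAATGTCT

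Start regions were read for 6 of the 9 genes, and those of Aldh1a3, Aldh2 and Aldh3a1 were not analysed here. A set of 3 short motifs was searched on both strands, namely GCGTG, the core bound by the aryl hydrocarbon receptor, TGACNNNGC, the core of the antioxidant response element bound by NRF2, and ATCAAAG, the core bound by TCF factors in Wnt signalling. Of 32851 start regions of the same length, 32.4% held GCGTG, 12.4% TGACNNNGC and 3.73% ATCAAAG. Aldh3a2 held 1 GCGTG at base 134 of its region, 117 bases before the start. Aldh9a1 held GCGTG on the opposite strand at bases 211 and 239, and TGACNNNGC at base 164. The other 4 genes, Aldh1a1, Aldh1a7, Aldh1b1 and Aldh3b1, held none of these letters in their windows. The regions of Aldh3a2 at chr11:61267137-61267436 on the minus strand and of Aldh9a1 at chr1:167349741-167350040 on the plus strand are printed because they held the matches, which are in capitals. Both genes rose under inhibition in both regions of the stomach, as did Aldh3b1, whose start region held no match. Whether the matches bear on these changes was not tested.
Aldh3a2 start region: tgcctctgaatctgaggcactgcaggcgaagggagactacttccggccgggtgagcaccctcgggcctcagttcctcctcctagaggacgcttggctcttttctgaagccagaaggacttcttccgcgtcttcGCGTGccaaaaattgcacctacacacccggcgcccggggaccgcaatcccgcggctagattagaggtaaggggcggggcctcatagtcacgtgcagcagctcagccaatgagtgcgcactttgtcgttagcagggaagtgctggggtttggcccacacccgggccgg
Aldh9a1 start region: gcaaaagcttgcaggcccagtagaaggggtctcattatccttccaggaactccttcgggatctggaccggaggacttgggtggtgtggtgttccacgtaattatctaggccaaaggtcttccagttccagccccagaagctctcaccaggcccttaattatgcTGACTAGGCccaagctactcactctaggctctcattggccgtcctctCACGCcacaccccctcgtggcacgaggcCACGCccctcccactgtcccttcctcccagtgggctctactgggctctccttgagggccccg

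On GRCm38 the genes fall into neighbouring pairs and singles. Aldh3a1 (ENSMUSG00000019102, chr11:61207537-61218421) and Aldh3a2 (ENSMUSG00000010025, chr11:61223417-61267464) lie 4995 bases apart with 0 coding genes between them and are read from opposite strands. Aldh1a1 (ENSMUSG00000053279, chr19:20492715-20643465) and Aldh1a7 (ENSMUSG00000024747, chr19:20692953-20727562) lie 49487 bases apart, also with 0 coding genes between them. Aldh3b1 (ENSMUSG00000024885, chr19:3913491-3929808) lies near its relatives Aldh3b3 and Aldh3b2. Aldh1a3 (ENSMUSG00000015134) lies at chr7:66390890-66427517, Aldh2 (ENSMUSG00000029455) at chr5:121566027-121593824, Aldh1b1 (ENSMUSG00000035561) at chr4:45799022-45804604 and Aldh9a1 on chromosome 1. All are protein-coding, and each count is a sum over the whole gene.

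The libraries held 18858022 to 31656696 counts each. Levels are given as CPM, the count scaled to a common TMM-adjusted library total, and 3 counts, the most that a reading of 0 allows, equalled 0.0889 to 0.177 CPM. The Wnt target Lgr5, an R-spondin receptor of stem cells, stood at 1.5 ± 0.298 CPM in inhibited and 45 ± 4.51 CPM in vehicle antral organoids, and at 1 ± 0.781 and 48.2 ± 5.05 CPM in inhibited and vehicle corpus organoids (SD, n = 3 each). A set of 4 genes with rRNA-like sequence, of which Lars2 is one, made up 17.2% of the antral vehicle library of line 8025 and 6.87% of that of line 8028, against 0.839% to 3.45% elsewhere. Inhibited corpus line 8028 had more of the Wnt target Axin2 than the other inhibited corpus libraries (18.7 CPM), and stands apart in several values given below. In bulk RNA, a change in the share of cells of a type and a change of RNA per cell cannot be told apart.

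The first question was how 24 hours of Wnt inhibition changed these genes in each region. In both regions Aldh3a1, which oxidizes aromatic and medium-chain aldehydes, rose the most, and the other class 3 genes Aldh3a2 and Aldh3b1, the polyamine and carnitine pathway gene Aldh9a1 and the retinal-oxidizing Aldh1a3 rose with it. Aldh1a7 fell slightly in both regions, while Aldh1a1, the more abundant of the retinal-oxidizing genes, stayed short of the threshold in both. Aldh2 rose in antrum and Aldh1b1 fell in corpus. In antrum 6 genes rose and 1 fell, where 29.7% of all genes tested passed edgeR's quasi-likelihood test at a Benjamini-Hochberg adjusted p below 0.05 (16.3% higher, 13.4% lower). In corpus 5 rose and 2 fell, against 30.9% of all genes (15.5% higher, 15.4% lower). The median log2 change of the 9 genes was 0.605 in antrum and 0.548 in corpus, beside medians of -0.044 and -0.037 over all genes tested. All 3 inhibited libraries lay above all 3 vehicle libraries for 6 genes in antrum, where 24.1% of all genes did so, and below them for 3, where 24.6% did. In corpus they lay above for 5 genes (19.7% of all genes) and below for 2 (21.1%), and overlapped for Aldh1a1 and Aldh2. Each gene moved in 1 direction in all 3 lines of both regions. Without both libraries of corpus line 8026 the corpus count was 4 in place of 7. Over all genes it was then 2550 of 16345, in place of 4985 of 16152. On total counts the median of all genes was -0.119 in antrum and -0.193 in corpus, and 44.4% and 26.4% of all calls were higher, in place of 55% and 50.1%, with 43.6% in antrum on upper quartile scaling. None of the 9 genes changed direction in either region under RLE, upper quartile or total-count scaling.

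**Figure D1:**
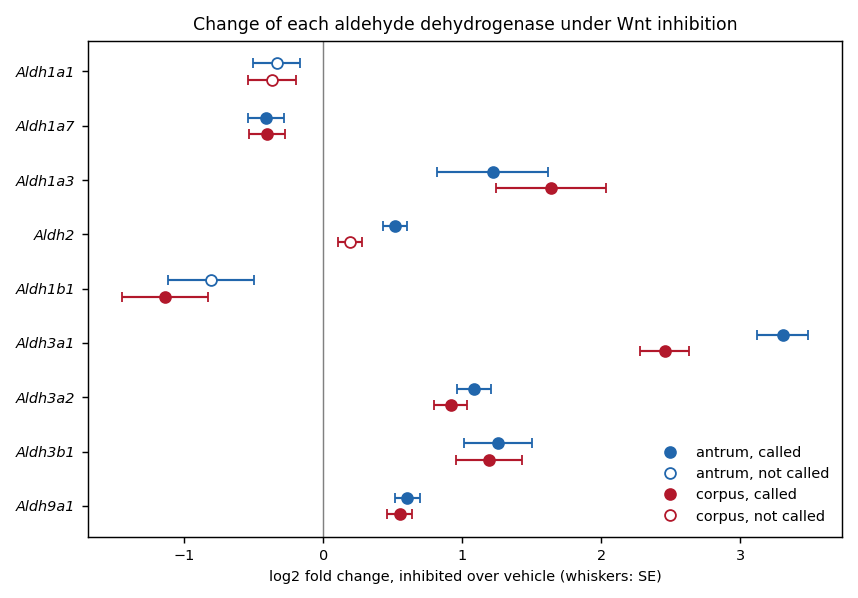
Log2 fold changes of the 9 genes, inhibited over vehicle, on the horizontal axis, with whiskers for the standard error, in antrum (blue, upper point of each pair) and corpus (red). Filled points passed the edgeR test over all 16152 genes; Aldh3a1 lies farthest to the right in both regions, at 3.30 in antrum and 2.46 in corpus.

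All 3 class 3 genes rose in both regions, Aldh3a1 by the most. Aldh3a1 reached 599, 670 and 691 CPM in inhibited antral lines 8025, 8026 and 8028, against 58.2, 55.9 and 84.3 CPM in the same lines in vehicle. In corpus it reached 942, 822 and 637 CPM in inhibited lines 8025, 8026 and 8028, against 161, 132 and 146 CPM in vehicle. The inhibited and vehicle libraries were far apart in every line, and inhibited corpus line 8028 was the lowest of the inhibited corpus libraries. The change was 9.88-fold in antrum (log2 3.30 ± 0.18 SE, edgeR adjusted p = 1.04e-06) and 5.49-fold in corpus (2.46 ± 0.18, adjusted p = 4.41e-06). Only 0.904% of all genes tested changed by more in antrum and 1.62% in corpus, in either direction. Within lines the ratio of inhibited to vehicle CPM ran from 8.2 to 12 in antrum and from 4.38 to 6.25 in corpus.

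Aldh3a2, which encodes the fatty aldehyde dehydrogenase of the endoplasmic reticulum, moved the same way by less. It stood at 193, 192 and 206 CPM in inhibited antral lines 8025, 8026 and 8028 and at 94.2, 83.1 and 102 CPM in vehicle, and at 228, 226 and 165 CPM in inhibited and 119, 109 and 100 CPM in vehicle corpus lines. Every inhibited library exceeded every vehicle library, and line 8028 was again the lowest of the inhibited corpus libraries. The log2 change was 1.08 ± 0.12 in antrum (edgeR adjusted p = 6.43e-05) and 0.92 ± 0.12 in corpus (adjusted p = 0.000207).

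Aldh3b1, a membrane-associated enzyme for lipid-derived aldehydes, was low in all groups. It gave 5.7, 4.48 and 5.63 CPM in inhibited and 2.42, 2.01 and 2.21 CPM in vehicle antral lines 8025, 8026 and 8028, and 8.37, 6.04 and 4.59 CPM in inhibited and 2.43, 2.33 and 3.56 CPM in vehicle corpus lines. The groups did not overlap in either region, and corpus line 8028 showed the smallest gap. The log2 changes were 1.26 ± 0.24 in antrum (edgeR adjusted p = 0.00251) and 1.19 ± 0.24 in corpus (adjusted p = 0.00277). Its neighbour Aldh3b2 was lower still and rose by more, with 4.13 ± 0.559 CPM in inhibited and 0.814 ± 0.199 CPM in vehicle antral organoids, and 3.63 ± 0.182 and 0.753 ± 0.326 CPM in inhibited and vehicle corpus organoids (SD, n = 3 each). Its log2 change was 2.33 ± 0.29 in antrum (edgeR adjusted p = 0.000118) and 2.26 ± 0.28 in corpus (adjusted p = 0.000129). Because the Aldh3b genes are related in sequence, some of their reads could have been split between them in the deposited counts.

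**Figure D2:**
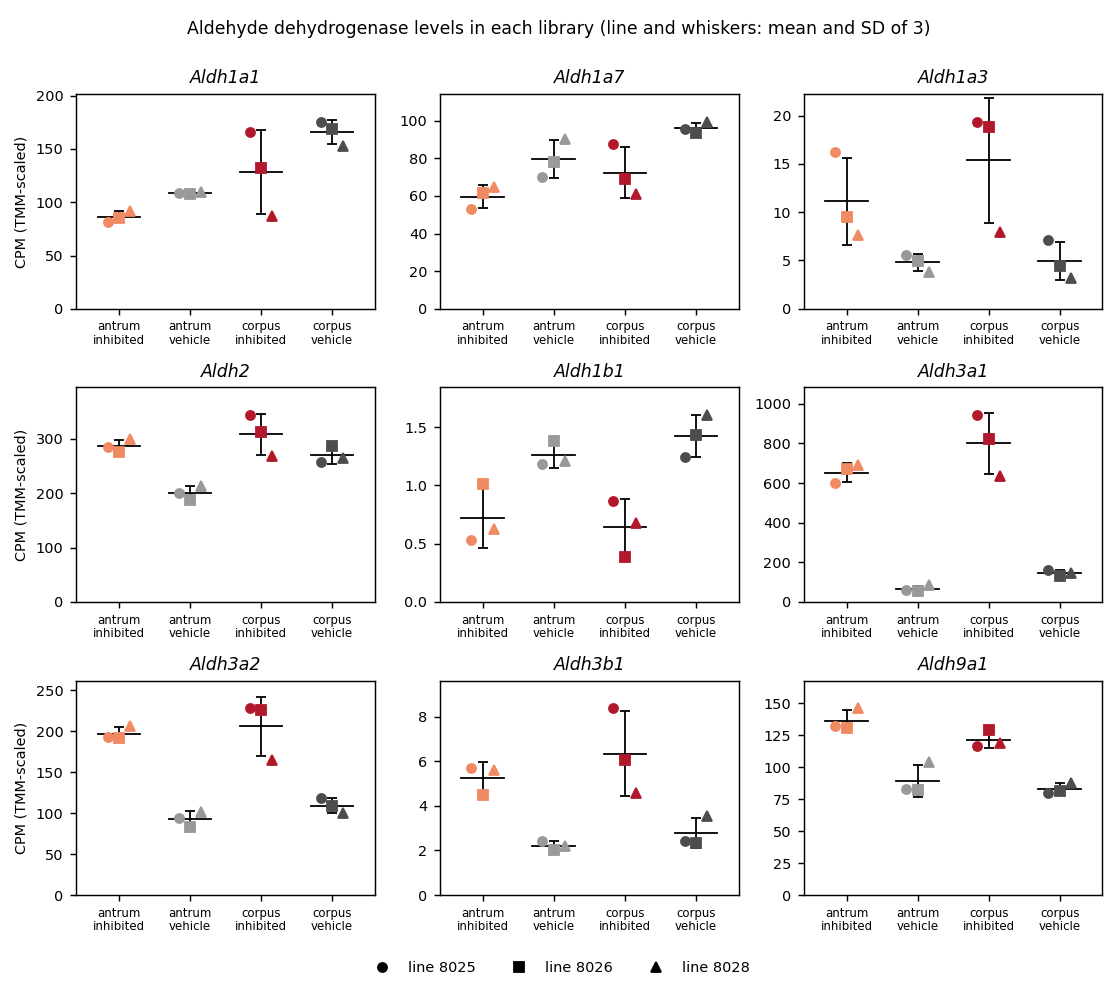
CPM of each gene in each library, 1 panel a gene with its own scale from 0; points are lines 8025, 8026 and 8028, and the line with whiskers is the mean and SD of 3 libraries. In the Aldh3a1 panel all inhibited points lie at or above 599 CPM and all vehicle points at or below 161 CPM.

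Aldh9a1, which oxidizes amine-derived aldehydes in polyamine breakdown and carnitine synthesis, rose by less. It stood at 132, 131 and 146 CPM in inhibited and 82.8, 81.9 and 104 CPM in vehicle antral lines 8025, 8026 and 8028, and at 117, 129 and 119 CPM in inhibited and 79.6, 81.7 and 88 CPM in vehicle corpus lines. The groups did not overlap in either region. The changes were 1.52-fold in antrum (log2 0.605 ± 0.093, edgeR adjusted p = 0.000557) and 1.46-fold in corpus (0.548 ± 0.093, adjusted p = 0.00101).

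The mitochondrial genes parted. Aldh2, the main acetaldehyde-clearing enzyme, stood at 285, 275 and 299 CPM in inhibited and 200, 187 and 214 CPM in vehicle antral lines 8025, 8026 and 8028, with no overlap and a log2 change of 0.515 ± 0.089 (edgeR adjusted p = 0.00118). In corpus Aldh2 stood at 343, 312 and 269 CPM in inhibited and 257, 287 and 264 CPM in vehicle lines, the groups overlapped, and the change of 0.192 ± 0.088 did not pass (adjusted p = 0.123). Without inhibited corpus line 8028 it passed (0.31, edgeR adjusted p = 0.00648), where 6888 of all genes passed in place of 4985. The antral change exceeded the corpus change by 0.323 ± 0.125 on the log2 scale, which did not pass (edgeR adjusted p = 1).

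Aldh1b1, a mitochondrial enzyme that accepts acetaldehyde and retinal and is known as a marker of progenitor cells in gut epithelium, was near the bottom of the measured range. In antrum it had 15, 27 and 16 counts in inhibited and 20, 42 and 29 counts in vehicle lines 8025, 8026 and 8028, or 0.528, 1.01 and 0.626 CPM against 1.18, 1.38 and 1.21 CPM. In corpus it had 21, 9 and 18 counts in inhibited and 42, 45 and 48 counts in vehicle lines, or 0.865, 0.385 and 0.677 CPM against 1.24, 1.43 and 1.6 CPM. Each inhibited library lay below each vehicle library of its region. The change passed in corpus (log2 -1.14 ± 0.31, edgeR adjusted p = 0.0159) and not in antrum (-0.81 ± 0.31, adjusted p = 0.0713), and the difference between them did not pass (0.33 ± 0.44, adjusted p = 1). The corpus call was lost without inhibited line 8026 (edgeR adjusted p = 0.066) or vehicle line 8028 (0.0562), and the antral change passed without inhibited line 8026 (log2 -1.13, adjusted p = 0.0322).

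The Aldh1a genes did not move together, since Aldh1a3 rose and Aldh1a7 fell. Aldh1a3, the retinaldehyde dehydrogenase with the lowest level of the Aldh1a members here, had 16.2, 9.51 and 7.62 CPM in inhibited and 5.6, 4.94 and 3.84 CPM in vehicle antral lines 8025, 8026 and 8028. In corpus it had 19.3, 18.8 and 7.94 CPM in inhibited and 7.08, 4.4 and 3.23 CPM in vehicle lines. The groups did not overlap, although line 8028 was the lowest of its group in all 4 groups. The log2 changes were 1.22 ± 0.40 in antrum (edgeR adjusted p = 0.0393) and 1.64 ± 0.39 in corpus (adjusted p = 0.0086). The antral call was lost without inhibited line 8025 (log2 0.85, edgeR adjusted p = 0.169), inhibited line 8026 (0.0584), vehicle line 8025 (0.066), vehicle line 8026 (0.087) or vehicle line 8028 (0.116). It was also lost with limma-voom (0.0759), with no low-count filter (0.105), on total counts (0.0517), and when both antral vehicle libraries high in rRNA-like genes were left out (0.237). In corpus leaving out both libraries of line 8026 ended it (edgeR adjusted p = 0.102).

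Aldh1a7, a rodent copy of Aldh1a1 known to oxidize small aldehydes with little activity on retinal, had 53, 61.3 and 64.6 CPM in inhibited and 70.1, 78.2 and 90.1 CPM in vehicle antral lines 8025, 8026 and 8028. In corpus it had 87.6, 68.8 and 60.8 CPM in inhibited and 95.5, 93.3 and 99.1 CPM in vehicle lines. It was lower in the inhibited library of every line, with groups that did not overlap. The log2 changes were -0.41 ± 0.13 in antrum (edgeR adjusted p = 0.034) and -0.41 ± 0.13 in corpus (adjusted p = 0.0347), or 0.75 and 0.754 times the vehicle level. Both calls depended on single libraries. The antral call was lost without inhibited line 8025 (edgeR adjusted p = 0.132), inhibited line 8026 (0.0699), vehicle line 8026 (0.0879), vehicle line 8028 (0.124) or both antral vehicle libraries high in rRNA-like genes (0.168). The corpus call was lost without inhibited line 8026 (0.137), inhibited line 8028 (0.102), vehicle line 8025 (0.095), vehicle line 8026 (0.069) or vehicle line 8028 (0.119), and when only the corpus libraries were fitted (0.069).

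Aldh1a1, a cytosolic retinaldehyde dehydrogenase, had 81.6, 85.3 and 91.9 CPM in inhibited and 109, 108 and 110 CPM in vehicle antral lines 8025, 8026 and 8028. In corpus it had 166, 132 and 87.4 CPM in inhibited and 175, 169 and 153 CPM in vehicle lines. The antral groups did not overlap and the corpus groups did, through inhibited line 8025, which stood almost at its vehicle level. The log2 changes were -0.34 ± 0.17 in antrum (edgeR adjusted p = 0.163) and -0.37 ± 0.17 in corpus (adjusted p = 0.123), neither past the threshold. The corpus change passed with the line as a replicate block (-0.41, edgeR adjusted p = 0.0238), on total counts (-0.53, 0.0324) and without inhibited line 8025 (-0.58, 0.0136), and the antral change passed when only the antral libraries were fitted (-0.32, 0.00385). Inhibited corpus libraries ran from 87.4 to 166 CPM, the widest spread of Aldh1a1 in any group.

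Aldh1a7 made up 39.4%, 41.8% and 41.3% of the Aldh1a1 plus Aldh1a7 counts in inhibited antral lines 8025, 8026 and 8028 and 39.2%, 42% and 45% in vehicle. In corpus it made up 34.6%, 34.2% and 41% in inhibited and 35.3%, 35.5% and 39.4% in vehicle lines. Exact binomial 95% intervals, which cover counting error only, put inhibited corpus line 8028 at 39.5% to 42.6% against an upper bound of 35.8% in the other inhibited corpus lines, and vehicle corpus line 8028 at 38.3% to 40.5% against an upper bound of 36.6%. The group means were 40.8% ± 1.29 in inhibited and 42.1% ± 2.91 in vehicle antral organoids, and 36.6% ± 3.81 and 36.7% ± 2.29 in inhibited and vehicle corpus organoids (SD, n = 3 each), a difference between treatments within the spread of lines. These shares were not tested.

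**Figure D3:**
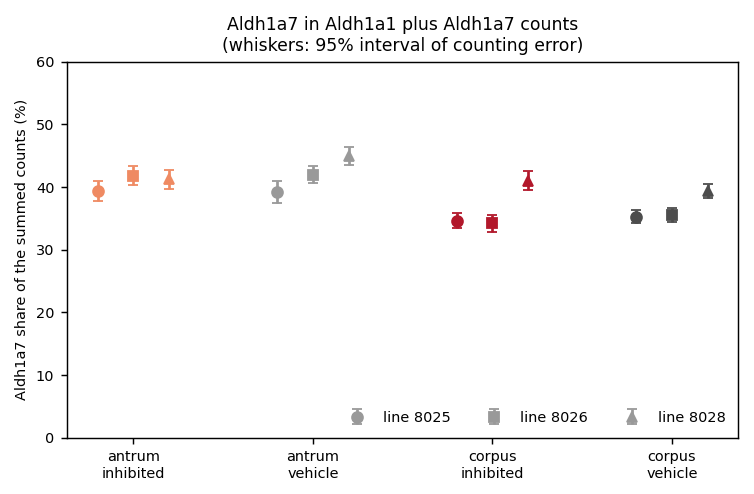
Aldh1a7 counts as a percentage of Aldh1a1 plus Aldh1a7 counts in each library, by group and line, with 95% binomial intervals for counting error as whiskers. Corpus lines 8025 and 8026 lie between 34.2% and 35.5% in both treatments, and the other libraries between 39.2% and 45%.

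Set against each other per length (CPM per kilobase of the main transcript), the genes changed order under inhibition. Aldh3a1 was the highest in both inhibited groups, at 378 ± 28.1 in antrum and 463 ± 89 in corpus, with no overlap with the next gene, Aldh2, at 74 ± 3.16 in antrum and 79.7 ± 9.63 in corpus (SD, n = 3 each). In antral vehicle the order was Aldh1a1 at 53.1 ± 0.549, Aldh2 at 51.8 ± 3.51, Aldh1a7 at 38.4 ± 4.87, Aldh3a1 at 38.2 ± 9.14, Aldh9a1 at 31.6 ± 4.42 and Aldh3a2 at 30.1 ± 3.07 CPM per kilobase. Of these neighbours only Aldh2 and Aldh1a7 did not overlap. In corpus vehicle Aldh3a1 at 84.4 ± 8.37 and Aldh1a1 at 80.7 ± 5.68 overlapped, followed without overlap by Aldh2 at 69.7 ± 4.04, Aldh1a7 at 46.5 ± 1.43, Aldh3a2 at 35.4 ± 3.07 and Aldh9a1 at 29.3 ± 1.54 CPM per kilobase. Aldh1a3, Aldh3b1 and Aldh1b1 stood at or below 5.61 CPM per kilobase in every library. Part of this order depends on the length used. With all annotated exons merged, 4937 bases for Aldh1a1 and 2066 for Aldh1a7, Aldh1a7 was the higher of these in all 4 groups. In antral vehicle Aldh1a1 then stood at 22.1 CPM per kilobase, below Aldh2 (39.1), Aldh1a7 (38.4), Aldh3a1 (34) and Aldh9a1 (26.5). In corpus vehicle Aldh1a1 stood at 33.6, below Aldh3a1 (75.1), Aldh2 (52.6) and Aldh1a7 (46.5). In inhibited antral organoids Aldh9a1 (40.3) then exceeded Aldh3a2 (35.1). Aldh3a1 stayed the highest under inhibition, at 336 in antrum and 412 in corpus.

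As a share of the summed level per kilobase of the 9 genes, Aldh3a1 made up 58.9% ± 1.36 in inhibited and 15.4% ± 2.1 in vehicle antral organoids, and 61% ± 0.712 and 24.1% ± 1.88 in inhibited and vehicle corpus organoids (SD, n = 3 each). The summed level was 641 ± 37.4 in inhibited and 246 ± 24 in vehicle antral organoids, and 758 ± 137 and 349 ± 10.4 CPM per kilobase in inhibited and vehicle corpus organoids. The Aldh1a genes together gave 74.1 ± 4.06 and 92.9 ± 5.01 CPM per kilobase in inhibited and vehicle antral organoids, with no overlap, and 102 ± 27.2 and 129 ± 5.15 in inhibited and vehicle corpus organoids, with overlap. Aldh1a7, which has little activity on retinal, is part of this Aldh1a sum. With merged exon lengths the Aldh3a1 share was 64.7% against 18.8% in antrum and 67.2% against 29.4% in corpus, each inhibited against vehicle.

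**Figure D4:**
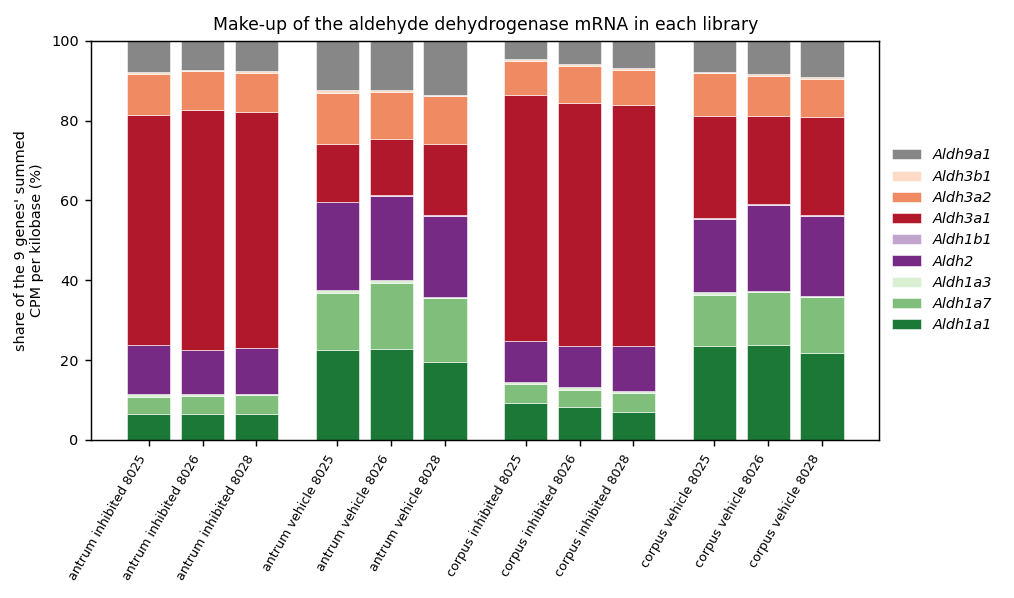
Stacked bars of each gene's share of the 9 genes' summed CPM per kilobase, 1 bar a library. The Aldh3a1 segment takes 57.5% to 61.8% of each inhibited bar and 14.1% to 25.7% of each vehicle bar.

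The second question was whether antrum differed from corpus. In vehicle, Aldh3a1 was 0.453 times as high in antrum as in corpus (log2 -1.14 ± 0.17, edgeR adjusted p = 0.0412), and no other of the 9 genes passed, where 0.198% of all genes passed (0.0681% higher, 0.13% lower). Its 3 antral vehicle libraries, at 58.2, 55.9 and 84.3 CPM, all lay below the 3 corpus vehicle libraries, at 161, 132 and 146 CPM. The call was lost without antral vehicle line 8025 (edgeR adjusted p = 0.171) or 8026 (0.0749), without corpus vehicle line 8025 (0.124) or 8026 (0.141), without the antral vehicle libraries high in rRNA-like genes (0.0903) and when only the vehicle libraries were fitted (0.0682). DESeq2, by which 477 of all 28593 genes passed, gave an adjusted p of 2.96e-07. Its log2 difference stayed between -1.38 and -1.03 in all of these settings.

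Aldh2 and Aldh1a1 were also lower in antral than in corpus vehicle libraries without overlap, but neither passed. The log2 differences were -0.43 ± 0.09 for Aldh2 (edgeR adjusted p = 0.0811) and -0.61 ± 0.17 for Aldh1a1 (adjusted p = 0.155). With DESeq2 both passed, at adjusted p = 0.00321 for Aldh2 and 0.0411 for Aldh1a1, where 477 of all 28593 genes passed. By edgeR both passed without both libraries of corpus line 8028 (adjusted p = 0.0134 for Aldh2 and 0.00359 for Aldh1a1), where 1080 of all 16355 genes passed. Aldh1a1 also passed with only the vehicle libraries (edgeR adjusted p = 0.0184, 18 of all genes). Aldh2 passed with no low-count filter (0.047, 68 of all genes) or on total counts (0.0484, 61 of all genes). The main fit called 32 of 16152 genes. In vehicle 4 of the 9 genes, these 3 and Aldh1a7, had all antral libraries below all corpus libraries, where 12.8% of all genes did so, and 0 had them above (9.68%). Their serum differed as their region did.

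Under inhibition 0 of the 9 genes differed between antrum and corpus by edgeR, where 0.0619% of all genes did (0.0495% higher, 0.0124% lower). DESeq2 and limma-voom also called 0 of the 9, and 1 of them, Aldh1a1, was below 0.05 before adjustment. Aldh1a1 stood at 86.3 ± 5.19 CPM in antral and 128 ± 39.2 CPM in corpus organoids (SD, n = 3 each; log2 -0.57 ± 0.17, edgeR adjusted p = 0.36). Without inhibited corpus line 8028, which at 87.4 CPM lay within the antral range, the difference was -0.79 and passed (adjusted p = 0.00206). In that setting 1883 of all 16528 genes tested passed, in place of 10 of 16152. Aldh3a1 stood at 653 ± 48.6 CPM in antral and 800 ± 154 CPM in corpus organoids, and its difference of -0.29 ± 0.17 did not pass (adjusted p = 0.603). All 3 inhibited antral libraries lay above all 3 inhibited corpus libraries for Aldh9a1 alone (6.71% of all genes), and below them for 0 of the 9 (5.06%).

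The response itself was then compared between regions. The antral response of Aldh3a1 exceeded the corpus response by 0.85 ± 0.24 on the log2 scale, or 1.8-fold, and did not pass (edgeR adjusted p = 1). Of the 9 genes 0 passed by edgeR, DESeq2 or limma-voom, where 0.00619% of all genes passed by edgeR (0.00619% higher, 0% lower), and 2 of them, Aldh3a1 and Aldh2, were below 0.05 before adjustment. A change called in 1 region and not in the other, as for Aldh2 and Aldh1b1, is therefore not shown to differ between them.

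Among 12 other aldehyde dehydrogenases 9 were measured well enough to test. In antrum 1 of them, Aldh3b2, rose and 3 fell, where 16.3% of all genes were higher and 13.4% lower. In corpus Aldh3b2 rose and 2 fell, where 15.5% were higher and 15.4% lower. Their median log2 changes were -0.208 in antrum and -0.074 in corpus. Aldh5a1, the mitochondrial succinic semialdehyde dehydrogenase, fell by 0.581 ± 0.068 in antrum (edgeR adjusted p = 8.56e-05) and by 0.56 ± 0.068 in corpus (adjusted p = 0.000112) on the log2 scale. Aldh4a1, of proline breakdown, fell by 0.25 ± 0.072 in antrum (adjusted p = 0.0222) and by 0.344 ± 0.072 in corpus (adjusted p = 0.00381). Aldh7a1, of lysine breakdown, fell by 0.373 ± 0.118 in antrum (adjusted p = 0.033). Aldh1a2, the remaining retinaldehyde dehydrogenase of the Aldh1a class, was near 0, with 0 counts in the 3 inhibited antral libraries, 1 in the 3 inhibited corpus libraries and 9 in the 3 corpus vehicle libraries.

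For the lists of neighbouring pathways, counts are to be read against the 29.7% of all genes that passed in antrum and the 30.9% in corpus. Of 11 tested genes for retinol oxidation and retinal reduction 4 rose and 0 fell in antrum, and 3 rose and 1 fell in corpus, with medians of 0.109 and 0.235 on the log2 scale, a share of calls near that of all genes in both regions. Adh7, the stomach alcohol dehydrogenase that oxidizes retinol, stood at 286 ± 34 CPM in inhibited and 60.7 ± 21.6 CPM in vehicle antral organoids, and at 304 ± 61.5 and 94.1 ± 12.6 CPM in inhibited and vehicle corpus organoids (SD, n = 3 each). It rose by 2.235 ± 0.232 in antrum (edgeR adjusted p = 3.94e-05) and 1.691 ± 0.226 in corpus (adjusted p = 0.000233). Dhrs9, a retinol dehydrogenase at a low level, rose by 2.16 ± 0.25 in antrum and 3.04 ± 0.27 in corpus, and Rdh10, the retinol dehydrogenase of retinoic acid synthesis, by 0.367 ± 0.099 and 0.495 ± 0.099 (edgeR adjusted p at most 0.0165). Dhrs3, a retinal reductase, rose by 0.49 ± 0.15 in antrum (adjusted p = 0.0302). Adh1, another alcohol dehydrogenase, fell in corpus (log2 -1.31 ± 0.27, adjusted p = 0.00397).

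Of 9 tested genes for retinoid uptake, binding and storage 4 rose and 2 fell in each region, with medians of 0.733 in antrum and 0.684 in corpus. Stra6, the membrane receptor for retinol-binding protein, fell by 3.32 ± 0.25 in antrum (edgeR adjusted p = 5.22e-06) and by 3.36 ± 0.25 in corpus (adjusted p = 5.1e-06) on the log2 scale, at 12.8 ± 3.9 CPM in inhibited and 128 ± 37.3 CPM in vehicle antral organoids. The intracellular retinol binders Rbp2 and Rbp7 and the carrier Ttr rose in both regions and were low in vehicle. Rbp2 stood at 7.89 to 10.5 CPM in inhibited antral libraries, against 0 to 0.132 CPM in vehicle, and at 2.23 to 7.67 CPM in inhibited and 0.148 to 0.166 CPM in vehicle corpus libraries. Rbp7 rose by 4.36 ± 0.405 in antrum and 2.94 ± 0.32 in corpus, and Ttr by 2.82 ± 0.34 and 1.939 ± 0.325 (edgeR adjusted p at most 0.000969).

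Of 7 tested genes for retinoic acid handling and its receptors 3 rose and 0 fell in antrum, and 2 rose and 1 fell in corpus, with medians of 0.332 and 0.255. These 3 of 7 stand beside 29.7% of all genes in antrum and 30.9% in corpus. Fabp5, a fatty acid binding protein that also carries retinoic acid, rose by 1.899 ± 0.234 in antrum and 2.044 ± 0.235 in corpus, and the receptor gene Rxra by 0.579 ± 0.085 and 0.511 ± 0.084 (edgeR adjusted p at most 0.000889). Rarg, a retinoic acid receptor, rose by 0.332 ± 0.105 in antrum (adjusted p = 0.033), and Rxrb fell in corpus (log2 -0.195 ± 0.062, adjusted p = 0.0347).

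Aldh3a1 is known as a target of the aryl hydrocarbon receptor, and genes of that receptor and of NRF2, the regulator of antioxidant genes, were read beside it. All 6 tested aryl hydrocarbon receptor targets rose in both regions. Cyp1a1, a cytochrome P450, stood at 32.8 to 50.2 CPM in inhibited antral libraries, against 0 to 0.125 CPM in vehicle, and at 20.9 to 50.8 CPM in inhibited and 0 to 0.119 CPM in vehicle corpus libraries. Among the inhibited corpus lines Cyp1a1 was highest in line 8028, at 50.8 CPM, and lowest in line 8025, at 20.9 CPM. The median log2 change of the 6 targets was 2.905 in antrum and 2.323 in corpus. A part of the receptor in the rise of Aldh3a1 was not tested. Ahrr, a repressor of the receptor, rose by 4.30 ± 0.45 in antrum and 3.843 ± 0.435 in corpus, Nqo1, a quinone reductase, by 2.73 ± 0.17 and 2.37 ± 0.17, and Ugt1a6a, a glucuronosyltransferase, by 3.08 ± 0.10 and 2.28 ± 0.10 (edgeR adjusted p at most 7.95e-05). Of 11 tested NRF2 targets 7 rose and 1 fell in antrum, and 10 rose and 1 fell in corpus, with medians of 0.379 and 0.555. Gclc, of glutathione synthesis, rose by 1.08 ± 0.30 in antrum and 1.09 ± 0.30 in corpus, and Srxn1, a sulfiredoxin, by 0.74 ± 0.16 and 0.85 ± 0.16 (edgeR adjusted p at most 0.0189). Me1, the malic enzyme, rose by 0.80 ± 0.17 in antrum (adjusted p = 0.00502) and Hmox1, a heme oxygenase, by 1.017 ± 0.345 in corpus (adjusted p = 0.0443). Gpx2, a glutathione peroxidase, fell by 1.39 ± 0.18 in antrum and by 1.61 ± 0.18 in corpus (adjusted p at most 0.00021).

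Of 9 tested other enzymes that reduce or oxidize aldehydes 5 rose and 0 fell in antrum, and 4 rose and 1 fell in corpus, with medians of 0.537 and 0.275. Akr1b8, an aldo-keto reductase, rose by 1.36 ± 0.12 in antrum and 1.197 ± 0.12 in corpus, and the carbonyl reductases Cbr3 by 1.55 ± 0.21 and 1.115 ± 0.207 and Cbr1 by 1.27 ± 0.24 and 0.803 ± 0.235 (edgeR adjusted p at most 0.0232). Aox3, an aldehyde oxidase, rose in antrum (2.20 ± 0.58, adjusted p = 0.0151), and Adh5, the formaldehyde dehydrogenase, fell by 0.375 ± 0.086 in corpus (adjusted p = 0.00652).

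**Figure D5:**
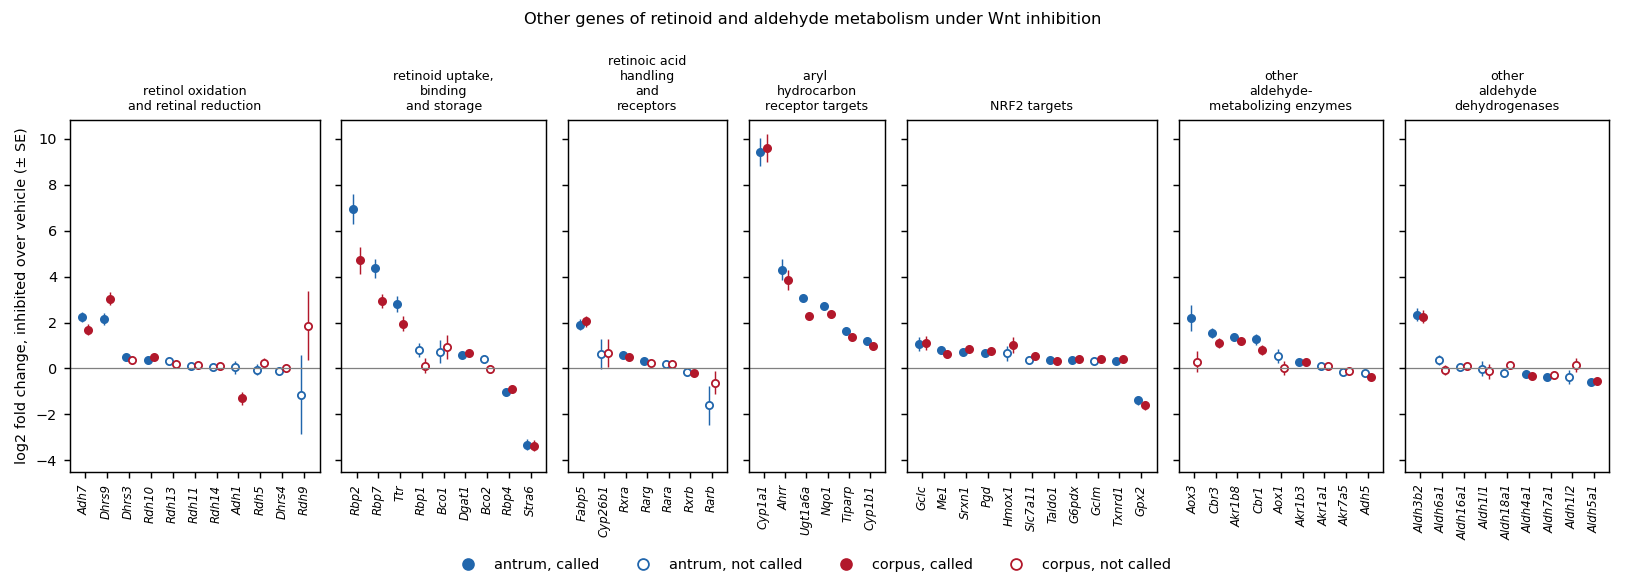
Log2 fold changes, inhibited over vehicle, with standard errors, for the tested genes of 7 lists, in antrum (blue) and corpus (red); filled points passed the edgeR test over all genes. Cyp1a1 and Rbp2 have 0 to 5 counts in vehicle libraries, so the height of their points depends on the fit; Stra6 and Gpx2 lie below 0 in both regions.

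The genes most like each member were found by Pearson's r of log2 CPM over the 12 libraries among 11024 genes with a mean of at least 5 CPM. The libraries share treatment, region and line, and they split by treatment. For Aldh3a1 they were Scamp5 (r = 0.996), Gss (0.994), Gstm1 (0.993) and Nqo1 (0.992), of which Gss makes glutathione and Gstm1 joins it to foreign compounds. For Aldh3a2 they were Fer1l4, Syt8, Coro2a and Mgst2 (0.994 to 0.996), for Aldh3b1 Aamp, Sytl5, Pgap1 and G6pdx (0.967 to 0.98), and for Aldh9a1 Zbtb18, Dyrk2, Gcc2 and Ipmk (0.977 to 0.98). For Aldh1a3 they were Znrf1, Tle5, Mtfr1l and Rnd2 (0.964 to 0.976), for Aldh1a1 Cyp39a1, Thap3, Ift52 and Kank3 (0.952 to 0.962), and for Aldh1a7 Hopx, Zswim9, D3Ertd751e and Dvl2 (0.927 to 0.941).

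Markers of cell types moved with treatment as well. The 5 surface pit cell markers summed to 3500 to 4620 CPM in inhibited and 562 to 634 CPM in vehicle antral organoids, and to 2050 to 3700 and 446 to 584 CPM in inhibited and vehicle corpus organoids, and all 5 rose in both regions. The 5 general epithelial markers summed to 15600 to 17800 CPM in inhibited and 8420 to 9920 CPM in vehicle antral organoids, and to 15700 to 17000 and 7970 to 8870 CPM in inhibited and vehicle corpus organoids. The keratin genes Krt8, Krt18 and Krt19 carried most of that sum and rose in both regions, and Cdh1 rose slightly (log2 0.204 in antrum and 0.186 in corpus). Epcam was at 466 ± 14.4 CPM in inhibited and 575 ± 7.88 CPM in vehicle antral organoids, which did not pass (edgeR adjusted p = 0.0965), and fell to 379 ± 92.8 CPM in inhibited against 525 ± 15.6 CPM in vehicle corpus organoids (adjusted p = 0.016; SD, n = 3 each). The 4 chief cell markers summed to 20.2 to 43.3 CPM in inhibited and 95.2 to 138 CPM in vehicle antral organoids, and to 25.3 to 30.7 and 140 to 373 CPM in inhibited and vehicle corpus organoids. Of the 3 chief cell markers tested 2 fell in each region. The 4 parietal cell markers, of which Cblif is shared with the chief cell list and Atp4b had 1 count in all 12 libraries together, summed to 3.01 to 6.68 CPM and 33.9 to 63.2 CPM in inhibited and vehicle antral organoids, and to 5.12 to 5.22 and 70.1 to 194 CPM in inhibited and vehicle corpus organoids. Cblif alone gave 32.9 to 61.4 CPM in antral and 68.9 to 192 CPM in corpus vehicle libraries, so the parietal sum repeats part of the chief cell sum. Atp4a, the parietal proton pump subunit, reached at most 1.56 CPM in any library. Of the 2 parietal cell markers tested 1 fell in antrum and 2 in corpus. The 8 markers of forestomach squamous epithelium, a tissue that borders the corpus, summed to 27 to 40.1 CPM in inhibited and 9.31 to 14.3 CPM in vehicle antral organoids, and to 25.6 to 33.7 and 11.3 to 14.5 CPM in inhibited and vehicle corpus organoids, and of the 6 tested Krt13 and Ivl rose in both regions and Lor fell in antrum, at 2.48 ± 0.3 CPM in inhibited and 4.02 ± 0.855 CPM in vehicle organoids (SD, n = 3 each). Krt5 was at 1.1 ± 0.095 and 1.12 ± 0.429 CPM in inhibited and vehicle antral organoids, and Krtdap was at 0 in every library. Trp63, which defines squamous basal cells, lay between 0 and 0.231 CPM. The 4 mucous neck and gland cell markers summed to 968 to 1620 CPM in inhibited and 767 to 1240 CPM in vehicle antral organoids, and to 786 to 1240 and 900 to 1250 CPM in inhibited and vehicle corpus organoids, but the single markers moved in opposite directions. Tff2 rose to 1110 ± 318 CPM in inhibited against 150 ± 64.2 CPM in vehicle antral organoids and to 829 ± 264 against 173 ± 57.7 CPM in inhibited and vehicle corpus organoids. Muc6 fell to 32.6 ± 12 CPM in inhibited against 339 ± 93.6 CPM in vehicle antral organoids and to 12.3 ± 3.94 against 203 ± 56.5 CPM in inhibited and vehicle corpus organoids. Aqp5 fell in both regions (log2 -2.371 in antrum and -2.918 in corpus), and Glipr1 fell in corpus (log2 -0.653; edgeR adjusted p at most 0.026 for each call in this list). The 5 immune cell markers summed to 17.2 to 28 CPM in inhibited and 9.85 to 27.6 CPM in vehicle antral organoids, and to 15.5 to 51.3 and 28.7 to 38.6 CPM in inhibited and vehicle corpus organoids. The 5 endocrine cell markers summed to at most 6.45 CPM. Fibroblast markers summed to at most 1.47 CPM and endothelial markers to at most 1.09 CPM, and the part of these shifts in the changes of the 9 genes was not tested.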

How the data were processed

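RNA was polyA-selected from organoids, per the labels' protocols. Per the file header, the authors deposited expected counts, 1 value a gene and library. RSEM 1.3.3, STAR 2.7.8a, FastQC 0.11.8, cutadapt 2.3 and the build GRCm38 are listed in the submitters' processing notes without roles. Whether counting used strand, the read length and the annotation release were not given in the sources used here. The values were already whole numbers. Of 55426 rows, 5 transgene rows with 2 counts in all were left out.

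The main test was edgeR's robust quasi-likelihood test (version 4.0.16, R 4.3.3) on TMM-scaled counts of all 12 libraries, which leaves 8 residual degrees of freedom, after the filterByExpr filter by group at a minimum count of 10. It was two-sided and Benjamini-Hochberg adjusted over 16152 genes at 0.05. Standard errors follow from the fold change and its F statistic. Levels per kilobase divide CPM by the main transcript's length in GENCODE release M21, in which 55240 of 55421 identifiers matched. Merging all exons was an alternative chosen after seeing the data. Start regions are from RefSeq. Tested on simulated data for the corpus comparison (15872 genes), the procedure found 62.7% of 1.5-fold and 89.6% of 2-fold changes. Of its 177 calls 10 were false. The simulation changed few genes, all with higher mean counts than Aldh1b1, and drew libraries without a line effect. Its rates therefore do not cover Aldh1b1, or data in which many genes change. Intervals and the limit of 3 counts cover counting error only.

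The members, gene lists and tests were chosen with earlier results of these data known. Every other aldehyde dehydrogenase that passed was named and, from each further list, up to 4 genes with the largest changes that passed in each region. Genes alike in pattern were named for Aldh1a1, Aldh1a3, Aldh3a1 and members called in both regions. The line number pairs inhibited and vehicle libraries of a region, since each line was treated both ways, and the deviations of such pairs correlated at 0.157 to 0.544. The main test held no term for the line and so left this pairing out. The line was fitted only as an alternative. Across regions they correlated at -0.104 to 0.277 and were not paired, and nothing says whether a shared number marks 1 mouse. Between libraries of a group, counts differed by 10.2 to 287 in chi-square per degree of freedom, so none was a duplicate. Alternatives were other scalings, no low-count filter, DESeq2 1.42.0, limma-voom (limma 3.58.1), the line as a block, only the libraries compared, and leaving out libraries.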

Additional observations from a re-analysis of the deposited data

How the results depend on the processing

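In the treatment comparisons 0 of the 9 genes changed direction under any alternative run. Aldh3a1, Aldh3a2, Aldh3b1 and Aldh9a1 kept their calls in both regions under all 20 alternatives in antrum and all 19 in corpus, and Aldh2 under all 20 in antrum. Aldh3a1 ranged from 3.177 to 3.551 in antrum and from 2.297 to 2.626 in corpus on the log2 scale. Leaving out single libraries ended the calls of Aldh1a3 in antrum, Aldh1a7 in both regions and Aldh1b1 in corpus, as given beside them, and did not end that of Aldh1a3 in corpus. The line as a replicate block changed the call of Aldh1a1 in corpus and no other call of these genes in a treatment comparison. The cause was not tested for any shift given here.

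Over all genes, the antral treatment count was 2740 in place of 4794 without antral vehicle lines 8025 and 8028, and 2710 to 4207 with libraries or lines left out, lowest without line 8025. The corpus count was 2550 to 6888 in place of 4985 with libraries or lines left out, lowest without line 8026 and highest without inhibited line 8028. With the line as a replicate block the treatment counts were larger, at 6594 in antrum and 7022 in corpus. Between regions in vehicle, 32 genes passed, against 477 with DESeq2, 21 with limma-voom, 69 with the replicate block, 68 with no low-count filter, 18 with only the libraries compared, 17 with RLE, 61 with total counts, 18 with upper quartile scaling and 2 without antral vehicle lines 8025 and 8028. With libraries left out it was 1 to 1080, highest without corpus line 8028. Between inhibited regions 10 passed, against 147 with DESeq2, 37 with the replicate block, 16 with no filter, 0 with only the libraries compared and 3 with total counts or upper quartile scaling, and 0 to 2386 with libraries left out, highest again without corpus line 8028. For the difference of responses 1 passed, against 7 with DESeq2 or the replicate block and 0 to 5 with libraries left out.

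Of the 9 genes, 4 to 8 were called in corpus with libraries left out in place of 7, beside 2550 to 6888 of all genes in place of 4985. Between regions in vehicle 1 was called, beside 32 of all genes. With DESeq2 it was 3 (477 of all genes), and 2 with no filter (68) or total counts (61). Without antral vehicle lines 8025 and 8028 it was 0 (2 of all genes), and 0 to 3 with libraries left out (1 to 1080). Between inhibited regions 0 to 1 were called with libraries left out, beside 0 to 2386 of all genes.

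Some values that did not pass changed sign. The difference of responses of Aldh1a1 (0.033) was -0.006 with upper quartile scaling and -0.192 to 0.26 with libraries left out. That of Aldh1a7 (-0.007) was 0.007 with limma-voom, 0.011 with the replicate block, 0 with no filter, 0.074 with total counts, 0.019 without antral vehicle lines 8025 and 8028, and -0.15 to 0.157 with libraries left out. With libraries left out those of Aldh3b1 and Aldh9a1 ran from -0.343 to 0.408 and from -0.009 to 0.18. In vehicle, antrum against corpus, Aldh1a3 (-0.042) was 0.025 with the replicate block, 0.007 without antral vehicle lines 8025 and 8028, and -0.267 to 0.322 with libraries left out, and Aldh9a1 (0.108) was -0.022 and -0.013 to 0.172. In inhibited organoids leave-out ranges crossed 0 for Aldh1b1 (-0.161 to 0.436), Aldh3a2 (-0.205 to 0.025) and Aldh3b1 (-0.454 to 0.002). On total counts, corpus vehicle levels were 178 CPM for Aldh1a1, 103 for Aldh1a7, 289 for Aldh2 and 89.2 for Aldh9a1. With merged exons the Aldh3a1 share was 64.7% in inhibited and 18.8% in vehicle antral organoids, and 67.2% and 29.4% in inhibited and vehicle corpus organoids.

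Aldh1b1 rests on 9 to 48 counts a library, and each group on 3 lines.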
